A study of Homo sapiens with 12 samples.

Results

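The genes that encode the D-type cyclins (CCND1, CCND2 and CCND3), their kinases CDK4 and CDK6, the 4 INK4 inhibitors of these kinases (CDKN2A, CDKN2B, CDKN2C and CDKN2D) and AMBRA1 were followed through 3 pooled CRISPR knockout screens. They were chosen by name, as the gene symbol written in the name of each guide RNA, and make up 10 of the 18053 genes that the library targets. Each of the 10 was targeted by 4 guides, so that 40 of the 70948 gene-targeting guides are described. The screens asked which gene losses alter the growth of tumor cells during inhibition of CDK2 or of CDK4 and CDK6.

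D-type cyclins bind CDK4 and CDK6 early in the cell cycle, and the complexes phosphorylate the RB protein, which frees E2F transcription factors to drive entry into S phase. INK4 proteins bind CDK4 and CDK6 and block the kinases. AMBRA1 is a substrate receptor of the CUL4-DDB1 ubiquitin ligase that marks D-type cyclins for degradation, so that loss of AMBRA1 is known to raise cyclin D. Palbociclib inhibits CDK4 and CDK6, and INX-315 inhibits CDK2, the kinase that cyclin E activates.

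HCC1806, a basal-like triple-negative breast cancer line, and MIA PaCa-2, a pancreatic cancer line that is known to lack CDKN2A, carried the TKOv3 library, a lentiviral pool that delivers Cas9 guides. In the first HCC1806 screen there was 1 start library, 2 libraries grown with the vehicle DMSO and 2 grown with INX-315 at 500 nM. In the second HCC1806 screen there was 1 library each for start, DMSO and palbociclib at 500 nM. The MIA PaCa-2 screen had 1 library each for start, DMSO, INX-315 at 500 nM and palbociclib at 250 nM. The palbociclib doses are those of the study's methods, whereas the labels of the palbociclib samples of both lines read 250 mM. Grown libraries are labelled passage 8 and start libraries passage 0 in HCC1806 or passage 1 in MIA PaCa-2, whereas the methods describe growth with drug for up to 5 passages. Cells of a pool carry many different knockouts, and a guide's share of the reads stands for the share of cells that carry it. The study describes the paired HCC1806 libraries as biological replicates, and the sources used here do not say whether they were infected separately.

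The 12 libraries held 24946956 to 58875726 counted reads. EGFR and TP63 guides fell from the start by 2.03 to 4.34 on the log2 scale in HCC1806 and lay between −0.21 and 0.18 in MIA PaCa-2. One library stood apart. DMSO 1 of the first HCC1806 screen correlated with its partner DMSO 2 at r = 0.543 across guides, whereas both INX-315 libraries correlated at 0.964, and guides against olfactory receptor genes, which neither line needs, had a median log2 change from the start of −0.56 in DMSO 1 and of 0.03 to 0.13 in the other grown libraries. Calls with INX-315 in HCC1806 are therefore also given with DMSO 1 or DMSO 2 left out. The normZ of the 7 genes not called there stayed between −2 and 2 either way.

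Per-guide change from the start was taken as log2(CPM + 0.5) in a grown library minus the same in the start library of that screen, CPM being counts per 1000000 reads. The mean over a gene's 4 guides is given with the SD over guides, which is a spread between guides within a library and not between cultures. A mean of −1 or below was called lost and of 1 or above gained. Across all 18053 genes, 44% were lost in DMSO 1, 13.8% in DMSO 2, and 14.5% in each of the INX-315 libraries (14.5% and 14.5%) of the first HCC1806 screen. In the second screen 14.7% were lost with DMSO and 12.2% with palbociclib. In MIA PaCa-2 8.99% were lost with DMSO, 14.1% with INX-315 and 8.6% with palbociclib. Gains were rarer, at 1.63% in DMSO 1, 0.582% in DMSO 2, 0.41% in INX-315 1, 0.388% in INX-315 2, 0.26% in DMSO and 0.166% in palbociclib of the second HCC1806 screen, and 0.0443% with DMSO, 0.62% with INX-315 and 0.0886% with palbociclib in MIA PaCa-2. Of the 10 genes, 6 were lost in DMSO 1, 1 in DMSO 2, 4 in each INX-315 library of HCC1806, 1 in each DMSO and palbociclib library of the other 2 screens, and 5 in the INX-315 library of MIA PaCa-2. AMBRA1 was the only one of the 10 to be gained, in 5 of the 9 grown libraries.

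**Figure D1:**
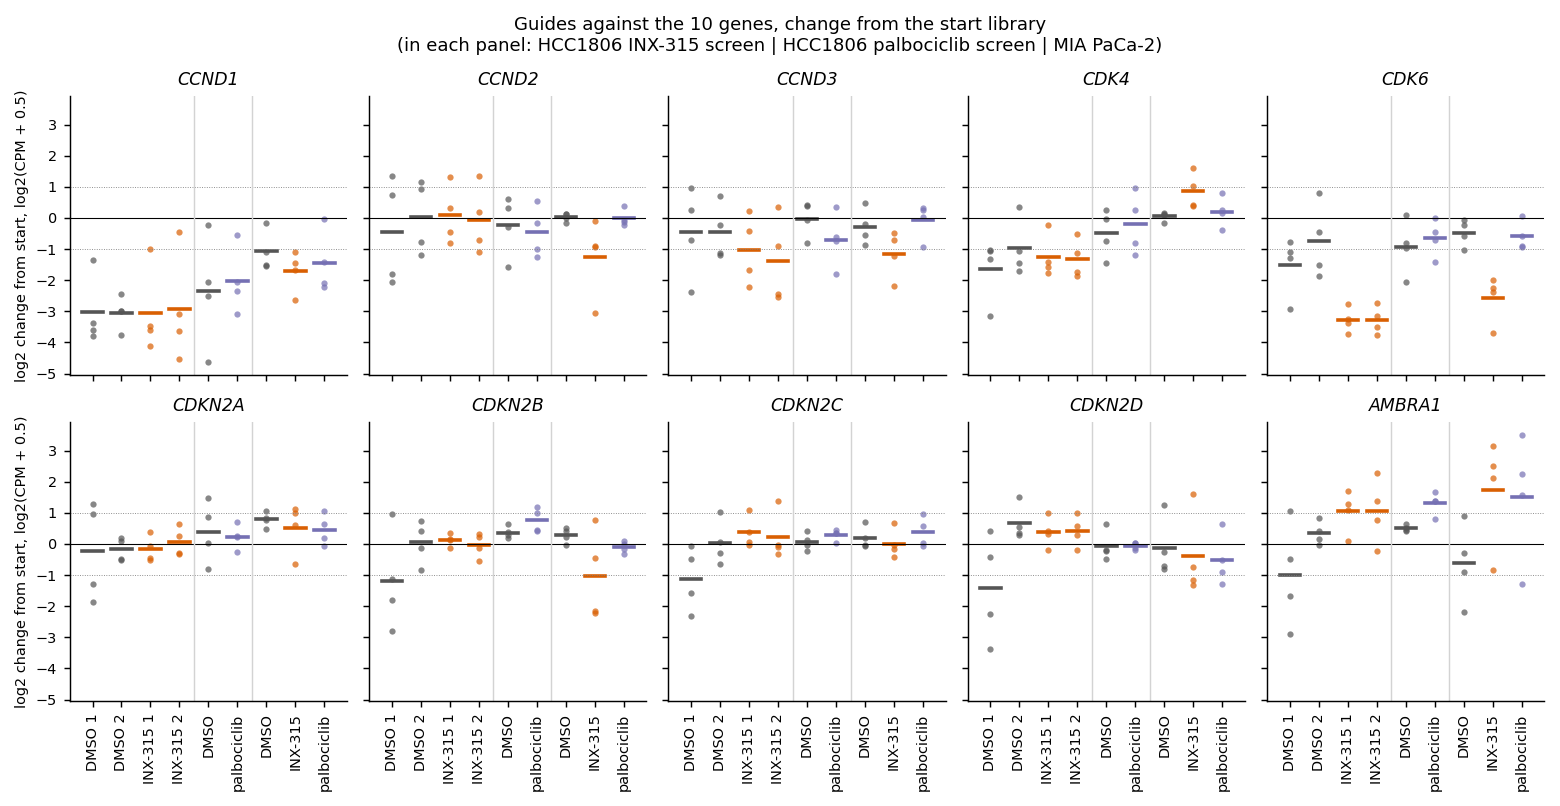
Log2 change from the start library (y axis) of the 4 guides (points) and their mean (bars) for each of the 10 genes in the 9 grown libraries (x axis), with DMSO in grey, INX-315 in orange and palbociclib in purple, and dotted lines at −1 and 1. CCND1 guides lie below the start in every library, CDK6 guides drop in the 3 INX-315 libraries, and the AMBRA1 mean lies above 1 in all 5 libraries grown with a drug.

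The effect of a drug was scored against DMSO with DrugZ, the algorithm the study used, which standardises each guide's log2 ratio by the spread of guides of similar abundance and combines a gene's guides into normZ. A normZ below −2 was called depleted, that is, cells with the knockout were lost faster in drug than in DMSO, and one above 2 enriched. The score rests on guides within 1 pair of libraries, or 2 pairs for INX-315 in HCC1806, and not on replicate cultures. With INX-315, 2.78% of all genes were depleted and 1.46% enriched in HCC1806, against 2.85% and 1.63% in MIA PaCa-2. With palbociclib, 2.55% were depleted and 1.99% enriched in HCC1806, against 2.65% and 1.78% in MIA PaCa-2. Among the 10 genes, CDK6 and CCND3 were depleted and AMBRA1 enriched with INX-315 in HCC1806, and CDK6 was depleted and CDK4 and AMBRA1 enriched with INX-315 in MIA PaCa-2. With palbociclib, CCND3 was depleted and AMBRA1 enriched in HCC1806, and AMBRA1 alone of the 10 was enriched in MIA PaCa-2. The median normZ of the 10 lay between −0.44 and 0.45 in these 4 comparisons, and that of all genes between 0.01 and 0.04.

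**Figure D2:**
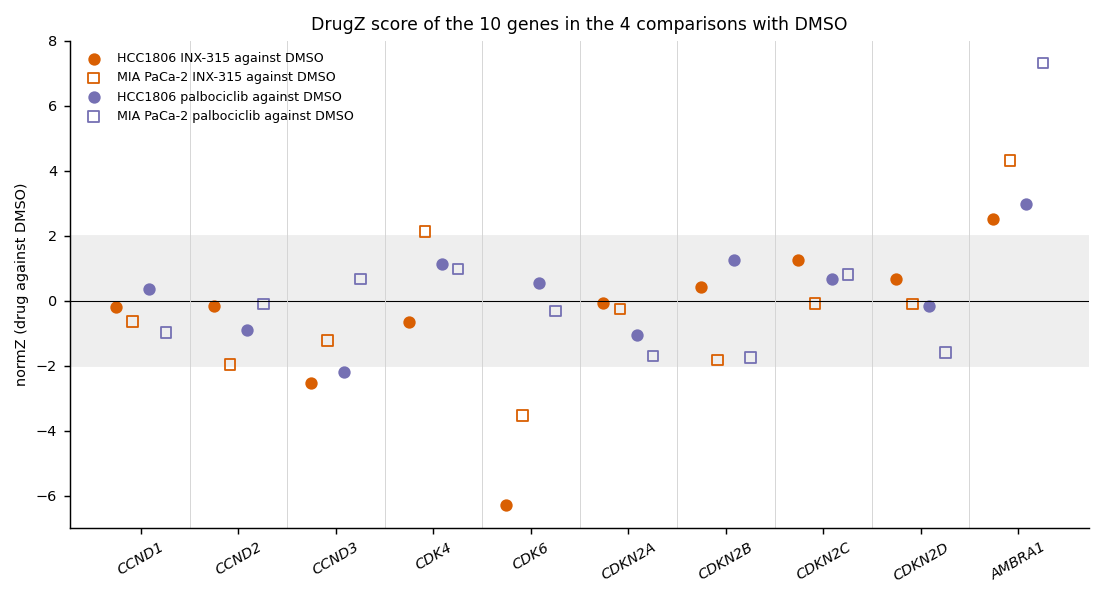
DrugZ normZ of drug against DMSO (y axis) for the 10 genes (x axis), with INX-315 in orange, palbociclib in purple, filled circles for HCC1806 and open squares for MIA PaCa-2. The grey band spans −2 to 2; CDK6 lies far below it with INX-315 at −6.30 and −3.53, and AMBRA1 above it in all 4 comparisons, from 2.52 to 7.32.

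CCND1, the cyclin D gene most often amplified in epithelial tumors, was the only one of the 3 cyclin genes to be lost in DMSO libraries of both lines. All 36 of its guide values, over 4 guides and 9 grown libraries, lay below the start. The mean change was −3.03 ± 1.13 (SD over 4 guides) in DMSO 1, −3.05 ± 0.54 in DMSO 2 and −2.35 ± 1.82 in DMSO of the second HCC1806 screen. In MIA PaCa-2 with DMSO it was −1.07 ± 0.63. The HCC1806 values lie below the MIA PaCa-2 value, but guides of both lines overlap: guide 4 changed by −0.21 in DMSO of the second HCC1806 screen and guide 2 by −4.63. Guide 4, at chr11:69462871-69462890 on the minus strand (coordinates as in the guide names, with a genome build not given in the sources used here), fell least of the 4 in each of the 6 grown HCC1806 libraries. Counts were low after the fall. The CCND1 guides had 255, 463, 377 and 498 counts in the start library of the first HCC1806 screen and 17, 41, 12 and 71 in DMSO 2.

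The summed counts of CCND1 guides in the 3 HCC1806 DMSO libraries differed from the start by a log2 fold change of −2.34 (SE 0.70, adjusted p = 0.234 from edgeR's quasi-likelihood test over 18050 genes). In that test no gene passed an adjusted p of 0.05 (0%), while 1671 genes were lower and 31 higher at an unadjusted p of 0.05. DESeq2 called CCND1 (adjusted p = 0.00131) among 1614 genes that were lower and 91 that were higher. edgeR with DMSO 1 left out called it too (log2 fold change −2.43, adjusted p = 0.00577), among 1969 lower and 262 higher genes. The difference between the lines in this change was 1.13 (95% interval −1.88 to 4.13, adjusted p = 1.00 from edgeR, 0% of 18051 genes called, 7 lower and 105 higher at an unadjusted p of 0.05, DESeq2 calling 3 lower and 28 higher), so that the larger fall in HCC1806 was not separated from the spread between libraries.

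Neither drug moved CCND1 past the normZ thresholds. Its normZ was −0.20 with INX-315 and 0.35 with palbociclib in HCC1806, against −0.63 and −0.97 in MIA PaCa-2. With INX-315 its mean was −3.05 ± 1.39 and −2.93 ± 1.75 in the 2 HCC1806 libraries, close to those of the DMSO libraries of that screen, and −1.71 ± 0.66 in MIA PaCa-2, where all 4 guides had a lower share than in DMSO. With palbociclib it was −2.01 ± 1.06 in HCC1806 and, in the pancreatic line, −1.44 ± 1.00. The 95% interval of the log2 fold change with INX-315 over both lines ran from −0.97 to 1.55 (edgeR, adjusted p = 0.886). In HCC1806 alone the summed counts, most of which came from guide 4, gave 0.68 (SE 0.57, adjusted p = 0.745, edgeR). With DMSO 1 left out they gave 1.13, in a fit that rests on a single DMSO library. Guide 4 had 71 counts in DMSO 2, 173 in DMSO 1, and 199 and 285 with INX-315, while the mean log2 ratio over guides was −0.02 ± 0.32 in the pair with DMSO 1 and 0.12 ± 1.29 in the other.

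CCND2, which encodes the D-type cyclin common in blood and gonadal cells, stayed near the start in most libraries. Its means lay between −0.46 and 0.09 in the 6 grown HCC1806 libraries and at 0.03 ± 0.14 with DMSO in MIA PaCa-2. With INX-315 in MIA PaCa-2 the mean was −1.25 ± 1.27, in which guides 1 to 4 changed by −0.10, −3.07, −0.93 and −0.89. Guide 2 fell most. The normZ of −1.96 against DMSO missed the threshold, whereas −2.04 against palbociclib passed it narrowly. Both depended on the setting. With a pseudocount of 1 the score against DMSO passed (−2.03). The score against palbociclib did not pass with a pseudocount of 20 (−1.83) or with the median guide (−1.15). In HCC1806 CCND2 scored −0.17 with INX-315 and −0.91 with palbociclib.

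CCND3, the third D-type cyclin, was depleted by DrugZ with either drug in HCC1806, at −2.54 for INX-315 and −2.21 for palbociclib. Without drug its mean change from the start was small: −0.46 ± 1.45 in DMSO 1, −0.46 ± 0.89 in DMSO 2, −0.02 ± 0.57 in DMSO of the second screen and −0.28 ± 0.58 in MIA PaCa-2. It fell to −1.02 ± 1.12 and −1.38 ± 1.38 in the INX-315 libraries of HCC1806, to −0.70 ± 0.89 with palbociclib in HCC1806 and to −1.15 ± 0.75 in MIA PaCa-2 with INX-315. Guide 3 stayed above the start in each of the 6 grown HCC1806 libraries, from 0.22 to 0.97. In MIA PaCa-2 with palbociclib the mean was −0.07 ± 0.57 and the normZ 0.68.

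The CCND3 scores were close to the threshold. The normZ in HCC1806 with INX-315 was −1.66 with DMSO 2 left out and −2.37 with DMSO 1 left out, and it missed the threshold when a gene's median guide was used (−1.40) and, narrowly, when INX-315 libraries were set against the mean of both DMSO libraries in place of a numbered partner (−1.99). The CCND3 palbociclib score was −1.54 with the median guide and −0.47 when the start library took the place of DMSO. Summed counts gave a log2 fold change of −0.89 (SE 0.31) with an adjusted p of 0.745 from edgeR, and −0.84 (SE 0.26) with an adjusted p of 0.820 over both lines. In HCC1806 edgeR gave CCND3 −0.58 with DMSO 1 left out and −1.14 with DMSO 2 left out, in fits that each rest on a single DMSO library. The mean log2 ratio of CCND3 guides to DMSO with INX-315 was −0.55 ± 1.42 in the pair with DMSO 1, with 2 guides higher and 2 lower, −0.92 ± 0.49 in the pair with DMSO 2, with 4 of 4 lower, and −0.87 ± 0.75 in the pancreatic line, with 3 of 4 lower.

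CDK6 guides were depleted with INX-315 in both lines and not with palbociclib in either. In the first HCC1806 screen the 4 guides had 496, 495, 353 and 323 counts at the start. They had 48, 210, 188 and 117 counts in DMSO 1 and 113, 151, 230 and 528 in DMSO 2. With INX-315 they had 50, 32, 10 and 14 counts in the first library and 49, 23, 9 and 18 in the second. Both INX-315 libraries lay below both DMSO libraries for guides 2, 3 and 4, whereas guide 1 had already fallen in DMSO 1. The guides' mean was −1.52 ± 0.97 in DMSO 1 and −0.75 ± 1.20 in DMSO 2, against −3.27 ± 0.41 and −3.29 ± 0.46 with INX-315.

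CDK6 guides in MIA PaCa-2 had 1055, 765, 689 and 787 counts at the start, 1035, 373, 610 and 535 with DMSO, 170, 147, 23 and 111 with INX-315, and 812, 281, 332 and 301 with palbociclib. All 4 were lower with INX-315 than in either other grown library. Their summed share was 43.4 CPM with DMSO (exact binomial 95% interval 41.7 to 45.1, counting error only), 9.17 (8.35 to 10.1) with INX-315 and 41.4 (39.5 to 43.4) with palbociclib. On the log2 scale the guides lay on average −0.47 ± 0.43 with DMSO, −2.58 ± 0.76 with INX-315 and −0.58 ± 0.47 with palbociclib from the start.

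In the second HCC1806 screen the guides had 535, 465, 345 and 275 counts at the start, 335, 253, 408 and 60 with DMSO and 360, 530, 280 and 106 with palbociclib. Here 3 of the 4 guides rose and 1 fell with the drug. The summed share of CDK6 guides fell 8.99-fold and 4.68-fold with INX-315 in the 2 HCC1806 pairs and 4.73-fold in MIA PaCa-2, whereas with palbociclib it was 1.19 times that of DMSO in HCC1806, and in the pancreatic line 0.955 times. CDK6 ranked 9 and 31 of 18053 genes from the most depleted with INX-315, at normZ −6.30 and −3.53. The CDK6 normZ in HCC1806 was −8.43 with DMSO 1 left out and −2.83 with DMSO 2 left out. It scored 0.55 and −0.32 with palbociclib. Directly against palbociclib in MIA PaCa-2, INX-315 gave a normZ of −3.34, with 4 of 4 guides lower and a mean log2 ratio of −2.0 ± 0.92. In that comparison 2.9% of all genes were depleted and 1.46% enriched, and of the 10 genes CDK6 and CCND2 were depleted.

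The count test used libraries as replicates. Summed counts of CDK6 guides in HCC1806 differed between INX-315 and DMSO by a log2 fold change of −2.86 (SE 0.47, unadjusted p = 0.00229, adjusted p = 0.745, edgeR). No gene was called there (0% of 18018 genes, with 352 lower and 105 higher at an unadjusted p of 0.05), nor was any single guide (0% of 68238, with 1322 lower and 267 higher at an unadjusted p of 0.05). DESeq2 called CDK6 at an adjusted p of 0.000191, the only 1 of the 10 among 29 genes, all lower. With DMSO 1 left out edgeR gave −3.16 (adjusted p = 2.92e-28), with 1530 genes lower and 1238 higher, and with DMSO 2 left out −2.47 (adjusted p = 4.32e-12), with 6580 lower and 6706 higher. In these fits the lone DMSO library is assumed to vary as little as the INX-315 pair, so that their calls cover a large part of the genome. Over both lines the fold change was −2.64 (SE 0.40, unadjusted p = 0.000381, adjusted p = 0.820, edgeR, 0% of 18048 genes called, 467 lower and 202 higher at an unadjusted p of 0.05). DESeq2 gave an adjusted p of 4.35e-07 for it, among 23 lower and 10 higher genes, and edgeR without DMSO 1 gave 0.0985. The difference between the lines was 0.65 (95% interval −1.35 to 2.66, adjusted p = 0.948, edgeR). This interval leaves room for a smaller or a larger fall in MIA PaCa-2 than in HCC1806.

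CDK4, the other kinase bound by D-type cyclins, did not follow CDK6. Without drug its mean change was −1.64 ± 1.01 in DMSO 1, −0.97 ± 0.91 in DMSO 2, −0.50 ± 0.76 in DMSO of the second HCC1806 screen and 0.05 ± 0.15 in MIA PaCa-2. With INX-315 it was −1.24 ± 0.69 and −1.31 ± 0.61 in HCC1806, within the values of the DMSO libraries, and 0.86 ± 0.59 in MIA PaCa-2. There the 4 guides had 1553, 2051, 1019 and 1407 counts at the start, 1763, 2374, 932 and 1555 with DMSO, 2787, 2309, 1170 and 3778 with INX-315 and 1347, 1693, 567 and 1807 with palbociclib. The summed share was 113 CPM (109.8 to 115) with DMSO, 204 (200.3 to 208) with INX-315 and 129.9 (126 to 133) with palbociclib, and all 4 guides had a larger share with INX-315 than with DMSO. In the same library the share of CDK6 guides fell 4.73-fold and that of CDK4 guides was 1.82 times as large.

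CDK4 was enriched with INX-315 in MIA PaCa-2 at a normZ of 2.14, and missed the threshold with the median guide (1.48) or when the start library took the place of DMSO (1.98). It scored −0.67 with INX-315 in HCC1806, and 1.13 and 0.97 with palbociclib in HCC1806 and MIA PaCa-2. The log2 ratio to DMSO in HCC1806 was 0.39 ± 0.87 in the pair with DMSO 1 and −0.34 ± 0.58 in the pair with DMSO 2, so that its sign depended on the DMSO library. The response to INX-315 differed between the lines by 1.14 in the count test (95% interval −0.06 to 2.34, unadjusted p = 0.0580, adjusted p = 0.948, edgeR, 0% of 18050 genes called, 202 lower and 231 higher at an unadjusted p of 0.05, DESeq2 calling 0 lower and 1 higher). The CDK4 difference was 1.31 (adjusted p = 1.84e-10, edgeR) with DMSO 1 left out and 0.93 (adjusted p = 1.52e-05, edgeR) with DMSO 2 left out, in fits that called 3160 genes lower and 3021 higher, and 5952 lower and 5604 higher. With palbociclib over both lines the log2 fold change was 0.30 (SE 0.16, adjusted p = 0.919, edgeR).

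**Figure D3:**
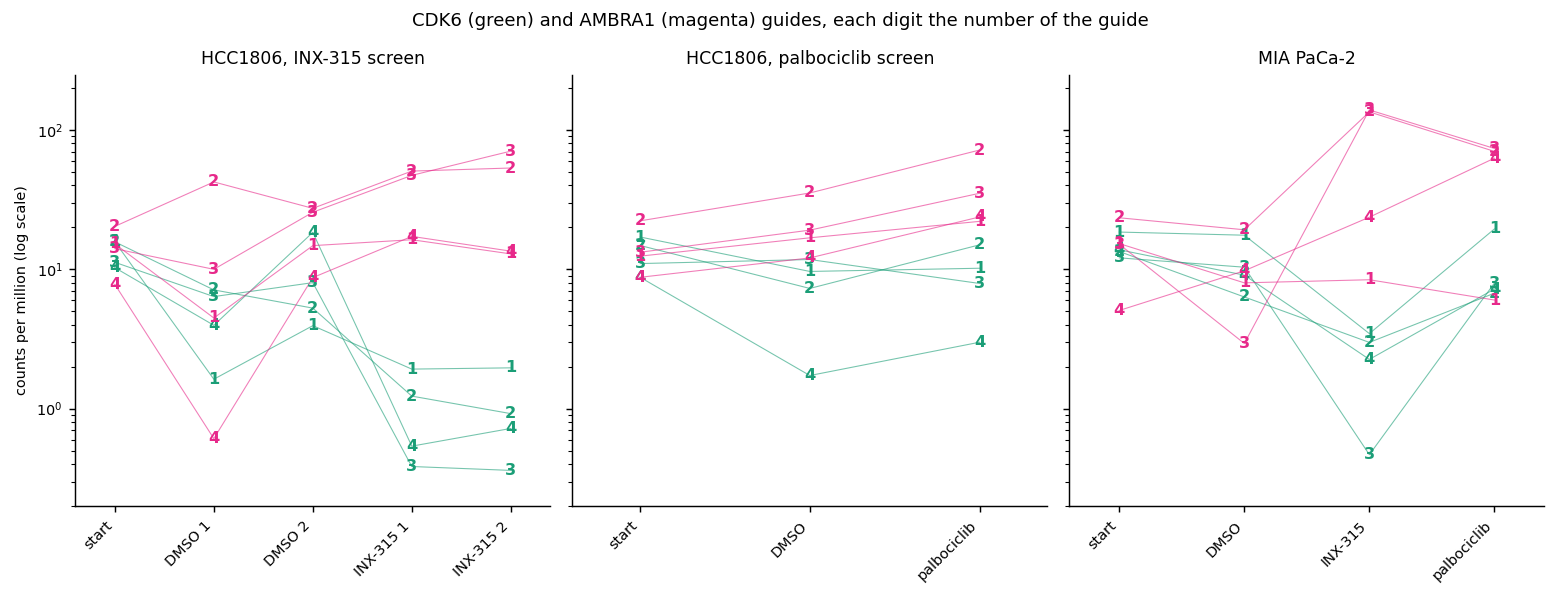
CPM (y axis, log scale) of each CDK6 guide (green) and AMBRA1 guide (magenta) in the libraries of the 3 screens (x axis), each digit standing for the guide of that number. CDK6 guides drop in the INX-315 libraries of both lines and stay near DMSO with palbociclib, and AMBRA1 guides 2, 3 and 4 climb in MIA PaCa-2 with both drugs while guide 1 stays low.

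No INK4 gene passed a normZ threshold, and none was gained from the start. CDKN2A encodes p16 and, in another reading frame, ARF, CDKN2B encodes p15, CDKN2C p18 and CDKN2D p19. Of the 16 scores these 4 genes had against DMSO, none passed −2 or 2: the lowest was −1.82 for CDKN2B in MIA PaCa-2 with INX-315, and the highest 1.27 for CDKN2C with INX-315 in HCC1806. The CDKN2A scores in MIA PaCa-2 could not show an effect of the knockout, because that line is known to lack the gene. The paper set HCC1806 beside the breast cancer line MB157 for p16 expression and overexpressed p16 in HCC1806. Whether HCC1806 itself expresses p16 was not tested here, so no conclusion on p16 loss is drawn from its CDKN2A scores. With DMSO 1 set aside, means from the start lay between −1.02 and 0.79 over all 4 genes and the other 8 grown libraries. In DMSO 1 they were −0.23 ± 1.59, −1.19 ± 1.59, −1.11 ± 1.02 and −1.42 ± 1.72 in the order CDKN2A to CDKN2D, where the median of all genes was −0.85. That library makes 3 of the 4 losses called among the INK4 genes.

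CDKN2B with INX-315 in MIA PaCa-2 was the fourth, at −1.02 ± 1.44. Its guides 1 to 4 changed by −2.22, −2.17, 0.76 and −0.45, so that guides 1 and 2 fell and guide 3 rose. The summed share of its guides was 1.48-fold lower than with DMSO, and its normZ passed the threshold with the median guide (−2.40). CDKN2B lies close to CDKN2A, which MIA PaCa-2 is known to lack. Whether the line keeps CDKN2B was not tested, so the fall is not read as an effect of its knockout. With palbociclib CDKN2B had a mean of 0.76 ± 0.38 in HCC1806, with 4 of 4 guides above the start, against 0.36 ± 0.19 with DMSO, and a normZ of 1.25. In that palbociclib library 99.1% of all genes had a lower mean than CDKN2B. In MIA PaCa-2 its normZ with palbociclib was −1.74.

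CDKN2A guides lay above the start in MIA PaCa-2 on average, at 0.79 ± 0.24 with DMSO, with 4 of 4 guides above the start, 0.52 ± 0.81 with INX-315 and 0.46 ± 0.49 with palbociclib. The CDKN2A mean was below the threshold of 1 but higher than that of 99.6% of all genes with DMSO, 93.2% with INX-315 and 94.4% with palbociclib. With DMSO in MIA PaCa-2, 4 neighbours of CDKN2A on chromosome 9 also lay above the start, from 0.36 to 0.77 (median 0.54). The 142 guides without a human target had a median of 0.44 there. Since the line is known to lack CDKN2A, the rise is not read as an effect of CDKN2A knockout. In HCC1806 with DMSO the means were −0.23 ± 1.59, −0.17 ± 0.37 and 0.39 ± 1.00, which overlap over guides. Guides 3 and 4 of CDKN2A share bases, as do guides 1 and 2 of CDKN2C, which start 1 base apart, and these pairs are not independent. Guides 1 and 2 of CDKN2C nonetheless differed, at −0.29 and 1.01 in DMSO 2 and −0.03 and 1.10 in INX-315 1. With palbociclib over both lines the INK4 fold changes lay between −0.35 for CDKN2A (SE 0.16, adjusted p = 0.860, edgeR) and 0.22 for CDKN2C (SE 0.17, adjusted p = 0.996, edgeR). CDKN2D was above the start with 4 of 4 guides in DMSO 2, at 0.68 ± 0.57, and below it with 3 of 4 guides in MIA PaCa-2 with DMSO (−0.13 ± 0.95), INX-315 (−0.40 ± 1.37) and palbociclib (−0.52 ± 0.84).

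AMBRA1 was enriched in all 4 comparisons with DMSO. In MIA PaCa-2 its 4 guides had 872, 1336, 862 and 289 counts at the start and 471, 1132, 173 and 575 with DMSO. They had 414, 6629, 6846 and 1164 counts with INX-315 and 251, 2926, 3071 and 2615 with palbociclib. Guides 2, 3 and 4 were above the start and above DMSO with both drugs, while guide 1, at chr11:46564876-46564895 on the plus strand, was below the start in all 3 grown libraries. The summed share was 58.9 CPM (57.0 to 61.0) at the start, 39.9 (38.3 to 41.6) with DMSO, 306 (301 to 311) with INX-315 and 213 (208 to 217) with palbociclib, which is 7.67-fold and 5.33-fold over DMSO. Guide 3, at chr11:46568737-46568756, had fallen by 2.18 on the log2 scale with DMSO and rose to 3.16 and 2.25 above the start with the drugs.

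In the second HCC1806 screen the AMBRA1 guides had 390, 699, 416 and 275 counts at the start, 584, 1225, 663 and 419 with DMSO and 781, 2538, 1242 and 840 with palbociclib. Here all 4 guides rose with the drug, guide 1 included, by 0.38 to 1.01 on the log2 scale. The summed share was 83.4 CPM (80.3 to 86.5) with DMSO and 153 (149 to 157) with palbociclib, 1.83-fold higher. All 4 guides were also above the start with DMSO alone, at 0.51 ± 0.10. In the MIA PaCa-2 screen the DMSO mean was −0.62 ± 1.28, with 3 of 4 guides below the start.

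In the first HCC1806 screen the guides had 478, 639, 442 and 245 counts at the start. They had 132, 1250, 295 and 18 counts in DMSO 1, 424, 785, 736 and 250 in DMSO 2, 424, 1318, 1228 and 448 in INX-315 1 and 322, 1331, 1759 and 337 in INX-315 2. Guides 2 and 3 stood higher in both INX-315 libraries than in either DMSO library, guide 4 did too, and guide 1 did not. The summed share was 2.29-fold higher in the pair with DMSO 1 and 1.96-fold higher in the pair with DMSO 2, and the guides' mean was 1.05 ± 0.69 and 1.05 ± 1.06 with INX-315 against −1.0 ± 1.68 and 0.35 ± 0.38 with DMSO.

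The normZ of AMBRA1 was 2.52 with INX-315 in HCC1806 (place 45 from the most enriched of 18053 genes), 4.32 with INX-315 in MIA PaCa-2 (place 5), 2.97 with palbociclib in HCC1806 (place 51) and 7.32 with palbociclib in MIA PaCa-2 (place 2). The pair of MIA PaCa-2 scores shares its DMSO library. In HCC1806 the INX-315 score was 1.76 with DMSO 2 left out, 2.45 with DMSO 1 left out and 1.85 with the median guide. The palbociclib score in HCC1806 was 1.90 when the start library took the place of DMSO. INX-315 directly against palbociclib in MIA PaCa-2 gave a normZ of 0.82, with a mean log2 ratio of 0.23 ± 1.10 over 4 guides, of which 3 were higher with INX-315 and 1, guide 4, was lower.

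In the count test AMBRA1 was the only 1 of the 10 that edgeR called in any comparison with all libraries kept. With palbociclib over both lines its log2 fold change was 1.64 (SE 0.16, adjusted p = 1.42e-19, edgeR), among 19 genes called (0.105% of 18049). That fit has 4 libraries and 1 residual degree of freedom, and edgeR took the spread as common to all genes (18049 degrees of freedom in the test). DESeq2 gave the same fold change with an SE of 0.72 and an adjusted p of 0.364. With INX-315 the log2 fold change was 0.96 (SE 0.29, adjusted p = 0.745, edgeR) in HCC1806 and 1.61 (SE 0.47, adjusted p = 0.820, edgeR) over both lines, where DESeq2 gave an adjusted p of 0.0833. In HCC1806 edgeR gave AMBRA1 0.87 with DMSO 1 left out and 1.07 with DMSO 2 left out, in fits that each rest on a single DMSO library. The response to INX-315 was larger in MIA PaCa-2 by 2.01 (95% interval 0.57 to 3.46, unadjusted p = 0.0166, adjusted p = 0.948, edgeR), and the difference was called only with DMSO 1 (2.10, adjusted p = 2.84e-37) or DMSO 2 (1.90, adjusted p = 3.03e-18) left out. These are the fits that called a large part of all genes. DESeq2 gave an adjusted p of 0.796 for the difference.

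Genes around the CDK4 and CDK6 step were scored in the same way. The list downstream of the kinases held 17 genes of the RB axis. With INX-315, 6 of them were depleted and 1 enriched in HCC1806 (median normZ −1.32, against 0.04 for all genes) and 5 depleted and 3 enriched in the pancreatic line (median −0.02). With palbociclib, 4 were depleted and 1 enriched in HCC1806 (median 0.08) and 3 depleted and 4 enriched in the pancreatic line (median −0.40).

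The genes that led this list differed in which drug moved them. RB1, the substrate of the kinases, scored 8.32 and 13.0 with palbociclib in HCC1806 and MIA PaCa-2 and 0.72 and −0.02 with INX-315, so that it passed the threshold with palbociclib and not with INX-315. CCNE1, the cyclin E that activates CDK2, scored −7.05 and −6.50 with palbociclib, and −3.67 and 0.02 with INX-315. CDK2 itself scored 5.69 and 6.01 with INX-315, and −0.67 and −2.12 with palbociclib. CDC25A, a phosphatase that activates CDK2, scored −5.14 and −3.44 with INX-315, in the direction of CDK6, and −0.75 and −0.34 with palbociclib. E2F2, a transcription factor that RB holds in check, scored −3.89 and −2.04 with INX-315 and −5.46 and −0.52 with palbociclib.

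In the 4 comparisons with DMSO, 2.55% to 2.85% of all genes were depleted and 1.46% to 1.99% enriched. Genes for the turnover of cyclin D, the pathway of AMBRA1, were counted at the same thresholds. Of 12 such genes, with INX-315 1 was depleted in HCC1806 (DET1, −2.36) and none passed in MIA PaCa-2. With palbociclib none passed in HCC1806, while in MIA PaCa-2 1 was depleted (DDA1, −2.08) and 1 enriched (GSK3B, a kinase that marks cyclin D1 for destruction, 2.67); these 3 genes are named because the counts are small, after their values were seen. The parts of the CUL4-DDB1 ligase, named for their place beside AMBRA1 although none passed, scored between −1.16 and 1.06 for CUL4A and DDB1 in the 4 comparisons with DMSO, between −1.05 and 1.34 for CUL4B, and between −1.51 and 0.91 for RBX1, the RING subunit. DDB1 guides were lost in all 9 grown libraries, with means from −4.35 to −1.84, as were those of RBX1, from −3.35 to −1.67. The scores of DDB1 and RBX1 thus compare guides already scarce with DMSO, and no conclusion on the ligase is drawn from them. CUL4A means lay between −1.22, in DMSO 1, and 0.41. Of 8 activators and chaperones of CDK4 and CDK6, FKBP5 narrowly passed as depleted in MIA PaCa-2 with INX-315 (−2.05) and palbociclib (−2.04). These scores share their DMSO library. None of the 8 passed in HCC1806. None of 4 neighbours of CDKN2A and CDKN2B on chromosome 9 passed in any of the comparisons.

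**Figure D4:**
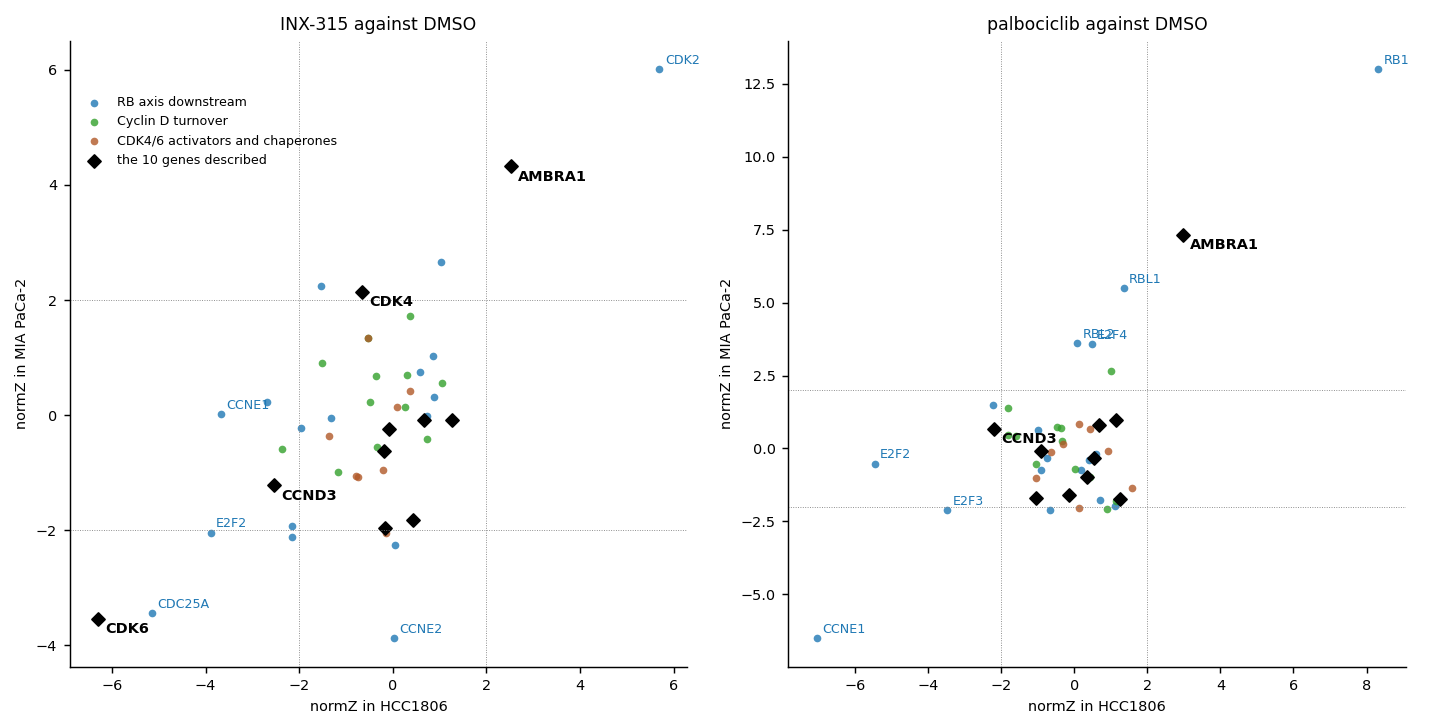
DrugZ normZ in HCC1806 (x axis) against MIA PaCa-2 (y axis) for INX-315 (left) and palbociclib (right), with the 10 genes as black diamonds, the RB axis in blue, cyclin D turnover in green and kinase activators and chaperones in brown; dotted lines mark −2 and 2. With INX-315, CDK6 and CDC25A lie at the lower left and AMBRA1 and CDK2 at the upper right, and with palbociclib RB1 and AMBRA1 lie at the upper right and CCNE1 at the lower left.

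For CDK6, CCND1 and AMBRA1, the other genes with at least 3 guides were ordered by how closely their mean change from the start tracked theirs over the 9 grown libraries, as the root mean square difference among 17627 genes. CDK6 lay nearest to PCM1 (0.37), MTRR (0.49) and POC1A (0.59), and CCND1 nearest to GTF3C3 (0.17), ZCCHC9 (0.19) and MMS19 (0.21). AMBRA1 had no gene as close, the nearest being DLK1 (0.63), OR52N5 (0.64) and SPTY2D1 (0.64). These distances are a description, since libraries of a screen share a start library and depth.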

How the data were processed

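Guide cassettes were amplified from genomic DNA and sequenced, as the methods describe, whereas the sample labels name total RNA. According to the methods the authors trimmed the reads and tallied them per guide with MAGeCK (MAGeCK 5.9 per the labels). The deposited tables hold raw counts per guide, and the deposited normalized tables hold the same counts as a signal scaled between the libraries of a screen by the authors, used here as an alternative. Guide sequences were not used here. Counts were assigned to genes by the symbol in the guide name. The 10 genes, the gene lists and the tests were chosen with earlier results of these data known. Named genes are the 10, plus up to 5 per pathway list past −2 or 2 in at least 2 of the 4 comparisons with DMSO; DET1, DDA1, GSK3B and the CUL4-DDB1 ligase genes fall outside this rule and were named after their values were seen.

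DrugZ was rewritten in Python 3.11.15 (pseudocount 5, total 10000000, window of 1000 guides in steps of 25), with INX-315 1 paired with DMSO 1 and INX-315 2 with DMSO 2 in HCC1806. No p was taken from it. Counts summed over a gene's guides were tested with edgeR 4.0.16 (R 4.3.3, filterByExpr, TMM, Benjamini-Hochberg) with a line or screen term, and with DESeq2 1.42.0. The SE is the log2 fold change divided by the square root of F. Scripts were tested on counts simulated from the mean of the HCC1806 INX-315 libraries, a setting without the spread seen between the DMSO libraries. Intervals and floors cover counting error only, because PCR reads carry no molecular identifiers; a count of 3 corresponds to 0.0510 to 0.120 CPM. The genes nearest to CDK4 and 1 marker of the lines are not reported here.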

Additional observations from a re-analysis of the deposited data

Results flagged for a closer look

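The mean log2 ratio of CCND3 to DMSO with palbociclib differed in sign between the 2 lines, with 1 pair of libraries each. It was −0.68 ± 0.86 (SD over 4 guides) in HCC1806, where its normZ was −2.21, and 0.21 ± 0.56 in MIA PaCa-2, where 2 guides were higher and 2 lower. The difference was not tested, since each line has 1 palbociclib library.

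The mean change of CDK4 from the start without drug differed in sign between the lines, at −1.64, −0.97 and −0.50 in the 3 HCC1806 DMSO libraries and 0.055 ± 0.15 (SD over 4 guides), near 0, in MIA PaCa-2. In the count test the difference between the lines was 0.83 (95% interval −0.79 to 2.44, adjusted p = 1.00, edgeR), and DMSO 1, which gave the lowest value, stands apart from the other libraries.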

How the results depend on the processing

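Counts of the 10 genes called stayed within 1.5 times the main count under 93 alternative settings and moved further under 23. With INX-315 in HCC1806 DrugZ called 3 of the 10, and 1 with the median guide or at a threshold of 3, and leaving out libraries gave 1 to 3. With palbociclib in HCC1806 it called 2, and 1 with the median guide, 0 with the start library as control and 0 at a threshold of 3. INX-315 against palbociclib gave 2, and 1 each with a pseudocount of 20, the median guide or a threshold of 3. edgeR called 0 of the 10 by gene in HCC1806 with INX-315, DESeq2 1, and leaving out a library gave 0 to 7; for guides leaving out a library gave 0 to 24. Over both lines DESeq2 called 1 with INX-315 (edgeR 0) and 0 with palbociclib (edgeR 1). For HCC1806 DMSO against start DESeq2 called 1 against 0, and leaving out a library gave 0 to 1; for the difference between the lines with INX-315 it gave 0 to 7. Of 90 means from the start 29 passed −1 or 1, 12 with a pseudocount of 5 CPM, 44 at a threshold of 0.5, and 23 without DMSO 1, an alternative added after seeing the data. The cause was not tested.

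Across guides, the difference between the HCC1806 DMSO libraries did not correlate with that between the INX-315 libraries (r = −0.007). Because DMSO 1 stands apart, this cannot show whether the replicate numbers pair libraries. With the number as a replicate block, edgeR called 7 genes and 11 guides in HCC1806 with INX-315 in place of 0, and none of the 10 genes (0); DrugZ with no replicate block called 2 of the 10 in place of 3. Of 430 single scores of the 10 genes 413 kept their side of the threshold, and none changed sign while called. The normZ of CDK6 with INX-315 ranged from −8.43 to −2.79 in HCC1806 and from −3.63 to −3.09 in MIA PaCa-2, and that of AMBRA1 with palbociclib in MIA PaCa-2 from 2.76 to 8.42. Guides of 9 to 50 counts limit how far the fall of CDK6 can be measured: the INX-315 means of −3.27 and −3.29 became −1.59 and −1.60 with a pseudocount of 5 CPM.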
